A study of Rattus norvegicus with 8 samples.

Results

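The 14-3-3 genes encode a family of small acidic adaptor proteins, and the 7 mammalian genes Sfn, Ywhab, Ywhae, Ywhag, Ywhah, Ywhaq and Ywhaz were followed here in the fetal rat testis. They were found as the probe sets that the array's gene table gives to 1 of these symbols alone, which were 10 of the 31042 probe sets tested. All 7 genes had at least 1 such probe set, with 2 each for Ywhab, Ywhaq and Ywhaz, and 0 probe sets shared a member with another symbol. The family was chosen by the DBP against vehicle values of Sfn on these same arrays, so the members' differences below are a description, without p-values.

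Testes came from male Fischer 344 rat fetuses at gestational day 20. In the exposed group the dams had received dibutyl phthalate (DBP), a plasticizer, at 50 mg/kg in corn oil, and in the vehicle group corn oil alone, both by gavage in 1 ml/kg. Dosing ran daily from gestational day 12, and tissue was taken 6 h after the last dose. Each group had 4 samples with 1 Affymetrix array each, and the question was which testis transcripts differ between exposed and vehicle fetuses. The labels do not say that the samples came from separate dams, so every p-value measures only the spread between these samples. Whole testis RNA was measured, so fewer cells of a type and less RNA per cell cannot be told apart.

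14-3-3 proteins form dimers that hold partner proteins at phosphorylated serine or threonine sites, which changes where the partner sits or whether it is active. Partners include cell cycle phosphatases, forkhead factors, kinases of the Raf family and the cell death protein Bad. Most family members are made in nearly every tissue, whereas Sfn, 14-3-3 sigma, is best known from epithelia, where in human cells it is induced by DNA damage and holds cyclin B1 and Cdk1 in the cytoplasm. In mouse Leydig tumour cells, 14-3-3 gamma and 14-3-3 epsilon are known to restrain steroid production through the cholesterol carrier Star and the mitochondrial channel Vdac1.

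The bases just upstream of the gene starts differed within the family in a way that used no array value. RefSeq promoter sequences (build GRCr8) matched 6 of the 7 genes. The 250 bases before the start of Sfn and of Ywhah are shown because they had the fewest and the most CpG dinucleotides of the 6; capitals mark each CpG, and both genes lie on the minus strand.
Sfn, chr5:151111855-151112104: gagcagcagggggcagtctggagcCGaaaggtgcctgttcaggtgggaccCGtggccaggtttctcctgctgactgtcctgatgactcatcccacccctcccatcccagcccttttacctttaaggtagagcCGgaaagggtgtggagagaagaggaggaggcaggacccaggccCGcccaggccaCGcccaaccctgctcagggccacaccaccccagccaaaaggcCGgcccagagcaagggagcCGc
Ywhah, chr14:81930203-81930452: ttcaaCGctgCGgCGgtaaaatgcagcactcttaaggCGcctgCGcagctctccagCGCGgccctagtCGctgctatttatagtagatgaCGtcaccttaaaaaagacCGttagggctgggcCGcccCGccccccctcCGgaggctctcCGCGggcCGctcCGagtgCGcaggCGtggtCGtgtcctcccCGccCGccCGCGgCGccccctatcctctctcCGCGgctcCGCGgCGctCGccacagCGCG
Sfn had 7 CpG in this window, near the median of 5 over 33465 rat promoters, and 54.8% of them had fewer. Ywhab had 20, Ywhaq 25, Ywhae 26, Ywhag 30 and Ywhah 33, so each of these 5 exceeded the count of at least 83.3% of promoters. GC content separated the genes less, with 64.8% for Sfn and 65.2% to 69.2% for the other 5. On either strand, an AP-1 motif (TGANTCA) lay at position -168 of Sfn, counting back from -1 at the base before the start, and in 0 of the other 5 windows; 6.34% of all promoters hold one. A GC box (GGGCGG), at -76 in Sfn, was present in all 6 windows and in 30.5% of all promoters. These motifs were picked after the sequences were seen, and a match of letters is no evidence of binding. The scan also covered a cAMP response element, a CCAAT box, a TATA box and a single repeat of the paired p53 motif, with 0 of each in Sfn. This repeat, for p53, a DNA damage response factor, was in 0 of the 6 windows and in 6.64% of all promoters. With so low a share, its absence from 6 windows says little, and bases further upstream were not scanned. Ywhah had a cAMP response element at -163 and a TATA box at -174, and Ywhab, Ywhag and Ywhaq had CCAAT boxes.

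The testis identity of the arrays was checked on its defining products: Amh of Sertoli cells gave log2 signals of 12.45 to 12.78 in DBP samples and 12.63 to 12.73 in vehicle samples, and Insl3 of Leydig cells 11.31 to 11.66 against 11.79 to 11.90. Array medians lay between 6.08 and 6.13, and correlations between any pair of arrays over all probe sets between 0.991 and 0.998. On DBP replicates 3 and 4 the poly-A control transcripts, bacterial RNAs mixed in ahead of labelling, had a mean log2 of only 4.84 and 4.79, against 6.46 to 7.17 on the other 6 arrays. Where the difference of a named gene in DBP replicates 1 and 2 alone departed from that of all arrays by over 1.5 times or in sign, and by over 0.05, it is given beside the result. This was not done for genes named after their values were seen. Of those, Amh, Alas2, Brca1, Cdc25b, Elf3, Kcnk3, Pim1 and Slc4a1 departed in this way. In the limma fit over all probe sets 331 of 31042 passed at a Benjamini-Hochberg adjusted p under 0.05, 130 higher (0.419%) and 201 lower (0.648%) in DBP. Once all arrays had been set to a common median, 158 were higher and 159 lower.

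Sfn was the 14-3-3 gene with the widest difference between the groups. Its log2 signals were 6.59, 6.32, 6.26 and 6.61 in DBP replicates 1 to 4, and 4.97, 5.20, 4.92 and 5.39 in vehicle replicates 1 to 4. Every DBP sample lay above every vehicle sample, with a gap of 0.87 between the lowest DBP and the highest vehicle value. The means were 6.45 ± 0.18 in DBP and 5.12 ± 0.22 in vehicle (SD, n = 4 each). The difference was 1.33 ± 0.12 on the log2 scale (SE), which is 2.51-fold with a 95% interval of 2.09 to 3.0. Of 14217 genes, each taken by its brightest probe set, 6 were higher in DBP by more.

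The difference was similar in the arrays with and without low control transcript signal. DBP replicates 1 and 2 averaged 1.34 above vehicle (log2 difference) and DBP replicates 3 and 4 averaged 1.32 above it. Leaving out any 1 of the 8 arrays gave 1.26 to 1.42. Within groups Sfn varied more than its neighbours in signal: its SD was 0.18 in DBP and 0.22 in vehicle, against medians of 0.16 and 0.098 over the 999 probe sets of most similar mean signal. In vehicle the Sfn signal exceeded that of 37.7% of probe sets, and in DBP that of 54.4%. The table holds no detection calls, so whether Sfn was above background in vehicle was not tested, and a signal near the floor of RMA can make a fold change smaller than the change in RNA. Sfn was measured by 1 probe set, with no second one to set beside it.

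**Figure D1:**
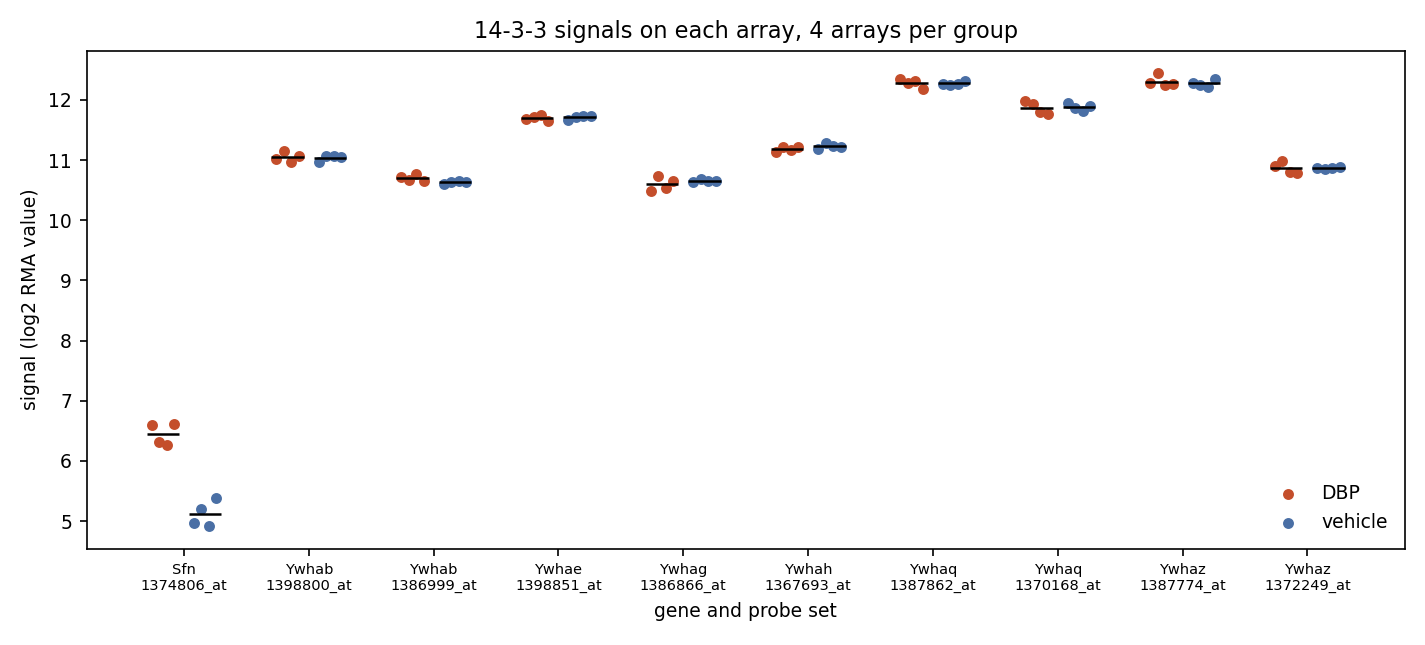
Log2 RMA signal (vertical axis) of each 14-3-3 probe set (horizontal axis), with 1 point per array and a bar at the group mean, DBP left of vehicle and 4 arrays in each. The Sfn points of the groups are apart, 6.26 to 6.61 in DBP and 4.92 to 5.39 in vehicle, while the 9 Ywha probe sets overlap or touch; heights of different probe sets are not comparable.

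The 6 Ywha genes had nearly the same signal in both groups. Their 9 probe sets differed by -0.05 to 0.07 (log2 difference, DBP minus vehicle), 4 of them higher, 4 lower and 1, of Ywhaq, at 0.00. The 95% intervals of these differences together ran from -0.19 to 0.19, or 0.876-fold to 1.14-fold. Differences of at most 0.07 in size were common, with 40.7% of all probe sets in that range. Of the 10 member probe sets 1, that of Sfn, passed the limma threshold, against 1.07% of all probe sets, and the same 1 had groups that did not overlap, against 10.9% of all probe sets (5.62% with DBP higher). Since the Sfn difference chose the family, nothing is read from these shares.

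Ywhag, 14-3-3 gamma, the form tied to Star in mouse Leydig cells, gave 10.49, 10.74, 10.54 and 10.65 in DBP and 10.63, 10.68, 10.65 and 10.65 in vehicle. The DBP samples lay on both sides of the vehicle range, and the means were 10.61 ± 0.11 and 10.65 ± 0.021 (SD, n = 4 each). Ywhae, 14-3-3 epsilon, a partner of Vdac1 in the same cells, gave 11.68, 11.71, 11.75 and 11.65 in DBP and 11.67, 11.72, 11.73 and 11.74 in vehicle. Its log2 difference was -0.02 with an interval of -0.13 to 0.10, and the groups overlapped over most of their range. Ywhah, 14-3-3 eta, which is prominent in brain, gave 11.14, 11.22, 11.17 and 11.21 in DBP and 11.19, 11.29, 11.23 and 11.21 in vehicle. Its log2 difference was -0.05 with an interval of -0.16 to 0.07, and 2 of the 4 DBP samples lay below the vehicle range and 2 within it.

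The other 3 genes had a pair of probe sets each, and the pairs gave differences of similar size. Ywhab, 14-3-3 beta, known as a partner of Raf kinases, gave 10.71, 10.67, 10.77 and 10.66 in DBP and 10.60, 10.64, 10.66 and 10.63 in vehicle with its dimmer probe set. This was the largest Ywha difference, 0.07 with an interval of -0.05 to 0.19, and the lowest DBP sample equalled the highest vehicle sample. The brighter Ywhab probe set gave 0.01, with overlapping groups at 10.96 to 11.15 in DBP and 10.96 to 11.07 in vehicle.

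Ywhaq, 14-3-3 theta, first known from T cells, differed by 0.00 and -0.01 with its probe sets. The brighter one read 12.18 to 12.34 in DBP and 12.25 to 12.32 in vehicle. In the dimmer one DBP replicates 1 and 2 read 11.98 and 11.93 and replicates 3 and 4 read 11.80 and 11.77, against 11.82 to 11.94 in vehicle. Ywhaz, 14-3-3 zeta, an adaptor of survival signalling through phosphorylated Bad, differed by 0.03 and 0.01. Its brighter probe set read 12.24 to 12.44 in DBP and 12.22 to 12.34 in vehicle, with a difference of 0.09 in DBP replicates 1 and 2. The dimmer Ywhaz probe set was split like the dimmer Ywhaq one. It read 10.90 and 10.99 in the first pair of DBP replicates and 10.80 and 10.79 in the other pair, against 10.85 to 10.88 in vehicle. The DBP mean of these 2 probe sets thus combined arrays above and below vehicle: against vehicle the Ywhaq probe set gave 0.07 for DBP replicates 1 and 2 and -0.10 for DBP replicates 3 and 4, and the Ywhaz one 0.08 and -0.07. This split fell between the same arrays as the control transcript signal, and the part of that signal in it was not tested.

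The DBP arrays were more scattered than the vehicle arrays for 8 of the 9 Ywha probe sets, with SDs of 0.037 to 0.11 in DBP and 0.013 to 0.051 in vehicle. The same held for 76.4% of all probe sets, so the wider spread was not limited to these genes. Over all 8 arrays the full range of a Ywha probe set was between 0.10 and 0.25 log2 units.

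**Figure D2:**
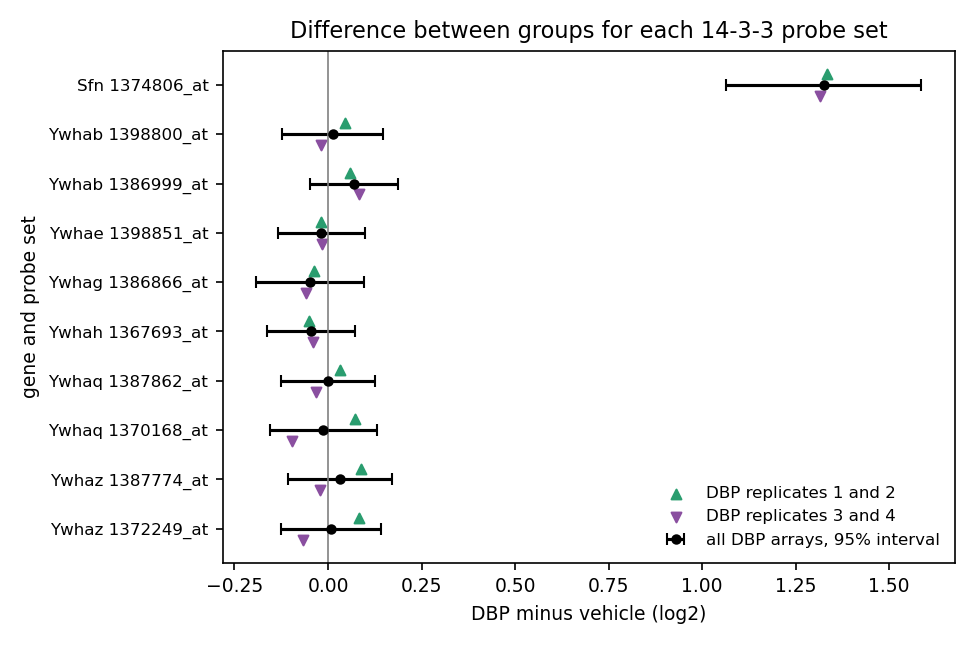
Difference in log2 signal, DBP minus vehicle (horizontal axis), for each 14-3-3 probe set (vertical axis), as points with 95% intervals over all arrays and triangles for DBP replicates 1 and 2 or 3 and 4 against the 4 vehicle arrays. Sfn lies at 1.33 with both triangles beside it, and the Ywha probe sets lie between -0.05 and 0.07.

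The genes whose values over the 8 arrays were most like those of Sfn were sought among 14216 other genes, by the root mean square difference after each gene was centred on its own mean. Testin, a secreted Sertoli cell product, was nearest at 0.222 log2 units, followed by Chchd4l1 (0.248), Hao2, a peroxisomal hydroxyacid oxidase (0.268), Srxn1, sulfiredoxin (0.273), and Grb14, an adaptor of the insulin receptor (0.279). The median gene lay at 0.681 and the next in order at 0.292, so the edge of this list of 5 was not sharp. All 5 were higher in each DBP sample than in each vehicle sample, with differences of 0.83 to 1.30, which a likeness to Sfn requires. The dimmer probe sets of Srxn1 differed by 0.30 and 0.08. On deviations from the group means 0 of these 5 were among the 5 nearest to Sfn, where their ranks ran from 201 for Grb14 to 10823 for Testin.

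**Figure D3:**
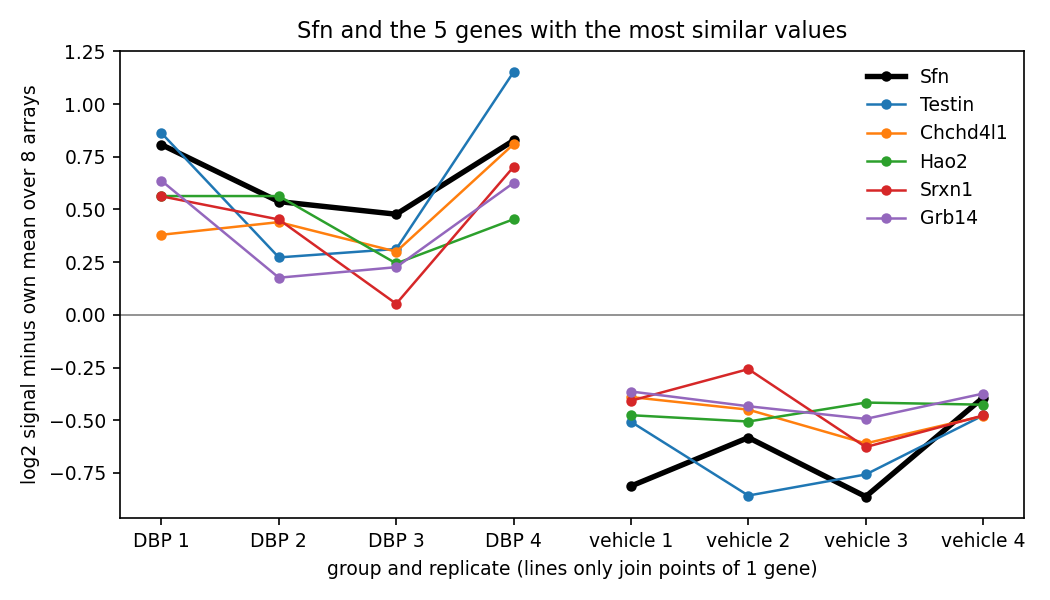
Log2 signal minus the gene's own mean over the 8 arrays (vertical axis) for Sfn and the 5 most similar genes, by group and replicate (horizontal axis). All 6 lie above 0 in the 4 DBP samples and below 0 in the 4 vehicle samples, and their order changes from array to array.

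Genes that work with 14-3-3 proteins were compared between the groups in the same limma fit, in 6 lists covering 95 measured genes of 111 listed. Of the 95, 0 passed the adjusted threshold, against 1.22% of all 14217 genes. Before adjustment 18 of the 95 were under 0.05, with 11 higher and 7 lower in DBP, against 19.1% of all genes. The median log2 difference of the 95 was 0.00, beside 0.02 over all genes. The groups did not overlap for 9 of the 95, against 12.9% of all genes. Unmoderated t statistics also gave 0. DBP replicates 1 and 2 against vehicle gave 3 (Cdc25b, Pim1 and Trim25), DBP replicates 3 and 4 gave 8, and leaving out DBP replicate 4 gave 1, the kinase gene Pim1. Over all genes the shares past the threshold in these comparisons were 1.67%, 12.8% and 1.26%. DBP replicate 4 read 4.45 for Pim1, against 5.23 to 5.24 in the other DBP samples and 4.87 to 4.99 in vehicle. Cdc25b and Pim1 are named here after their values were seen.

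Among the clients, proteins that 14-3-3 dimers hold at phosphorylated sites, 0 of 26 passed, and 9 were under 0.05 before adjustment, 7 of them higher. Foxo4, a forkhead factor kept out of the nucleus by 14-3-3 binding, gave 7.75, 7.77, 8.09 and 8.06 in DBP and 7.50, 7.70, 7.51 and 7.50 in vehicle. Its groups did not overlap, yet the difference of 0.37 ± 0.093 (SE) missed the limma threshold (adjusted p = 0.0992). Th, tyrosine hydroxylase, which makes the catecholamine precursor and is activated by 14-3-3 binding, differed by 0.27 (adjusted p = 0.115), and Hdac4, a histone deacetylase held in the cytoplasm, by -0.24 (adjusted p = 0.168). The 26 clients had a median of 0.015, beside 0.0225 over all genes. In DBP replicates 1 and 2 alone Foxo4 differed by 0.21, and in replicates 3 and 4, where Foxo4 and Th passed, by 0.52.

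Kinases and phosphatases that write or erase the docking sites gave 0 of 22 past the threshold, and 4 under 0.05 before adjustment (1 up, 3 down). Akt1, which phosphorylates sites on Bad and forkhead factors, read 10.20, 10.20, 10.17 and 10.13 in DBP and 10.23, 10.38, 10.34 and 10.41 in vehicle. Its DBP values were all below vehicle, by a log2 difference of -0.17 that did not pass in limma (adjusted p = 0.191). Pdpk1, which activates Akt kinases, differed by -0.15 (adjusted p = 0.235) and Chek2, a DNA damage kinase, by 0.17 (adjusted p = 0.260). Pdpk1 differed by -0.09 in DBP replicates 1 and 2 alone.

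At the step from G2 into mitosis, where Sfn is known to act in human epithelial cells, 0 of 19 genes passed, and 1, Chek2, was under 0.05 before adjustment. Cdk1, the kinase that Sfn holds back, differed by 0.06 with a 95% interval of -0.06 to 0.18. Its partner Ccnb1, cyclin B1, differed by 0.02 (-0.14 to 0.18). Wee1, the kinase that keeps Cdk1 inactive, read 9.26, 9.38, 9.07 and 9.04 in DBP and 9.35, 9.38, 9.34 and 9.36 in vehicle, a difference of -0.17 (adjusted p = 0.283 in limma). DBP replicates 1, 3 and 4 lay below all vehicle samples and replicate 2 equalled the highest of them. In DBP replicates 1 and 2 alone Wee1 differed by -0.04 and Ccnb1 by 0.12. Chek1, a kinase that acts when DNA replication stalls, read 9.05, 8.97, 8.79 and 8.52 in DBP and 9.08, 9.04, 8.92 and 8.95 in vehicle, a difference of -0.17 (adjusted p = 0.420 in limma). DBP replicates 1 and 2 averaged 0.01 above vehicle for Chek1, so the low values were those of replicates 3 and 4, at -0.34, where Chek1 and Wee1 passed. Cdc25b, a phosphatase that activates Cdk1, read 9.79, 9.77, 8.93 and 9.05 in DBP, so that replicates 1 and 2 were above and replicates 3 and 4 below the vehicle range of 9.07 to 9.39.

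Of the DNA damage response genes, to which Sfn belongs in human cells, 14 were measured and 0 passed; 6 were higher and 6 lower, with a median of 0.00. Cdkn1a, the cyclin kinase inhibitor p21, read 7.22, 7.37, 7.47 and 7.59 in DBP and 7.23, 7.22, 7.26 and 7.14 in vehicle, a difference of 0.20 (adjusted p = 0.231 in limma). Mdm2, a ubiquitin ligase, differed by 0.04 (95% interval -0.08 to 0.16). Rprm, reprimo, a G2 arrest gene, was lower in every DBP sample, at 4.93 to 5.18 against 5.28 to 5.50 in vehicle, and the difference of -0.32 missed the threshold (adjusted p = 0.0774). Sesn2, a stress-induced inhibitor of growth signalling, differed by -0.18 (adjusted p = 0.305). In DBP replicates 1 and 2 alone Cdkn1a differed by 0.08 and Sesn2 by -0.28. In replicates 3 and 4 Cdkn1a differed by 0.32 and passed, as did Rprm at -0.36.

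Of 8 measured genes known to control the amount of Sfn, 0 passed, 6 were lower and 2 higher. Trim25, the ubiquitin ligase Efp that marks 14-3-3 sigma for destruction in human breast cancer cells, read 7.99, 7.73, 8.37 and 8.54 in DBP and 8.48, 8.69, 8.72 and 8.40 in vehicle. DBP replicates 1 and 2 were below all vehicle samples and replicate 4 was within their range, with replicate 3 just below it. The difference over all arrays was -0.42 ± 0.16 (SE, adjusted p = 0.22 in limma), and in DBP replicates 1 and 2 it was -0.71 and passed. Usp8, a deubiquitinase, differed by -0.14 (adjusted p = 0.315) and Tp63, a transcription factor of stratified epithelium, by 0.12 (adjusted p = 0.337), or 0.19 in DBP replicates 1 and 2.

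The mitochondrial and steroid synthesis partners linked to 14-3-3 gamma and epsilon gave 0 of 12 past the threshold, 6 higher and 6 lower. Star averaged 10.91 in DBP and 10.81 in vehicle, with a difference of 0.10 (95% interval -0.10 to 0.30), or 0.21 in DBP replicates 1 and 2. Vdac1, the outer membrane channel, differed by -0.01 (-0.13 to 0.11), and Tspo, the translocator protein beside it, by 0.08 (-0.05 to 0.21). By unadjusted p, Fdx1, the electron carrier of side-chain cleavage, came first, with a log2 difference of 0.18 (adjusted p = 0.165 in limma). Next came Dbi, which binds Tspo, with a difference of 0.19 (adjusted p = 0.261). Cyp11a1, the side-chain cleavage enzyme, followed with a difference of -0.13 (adjusted p = 0.302).

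**Figure D4:**
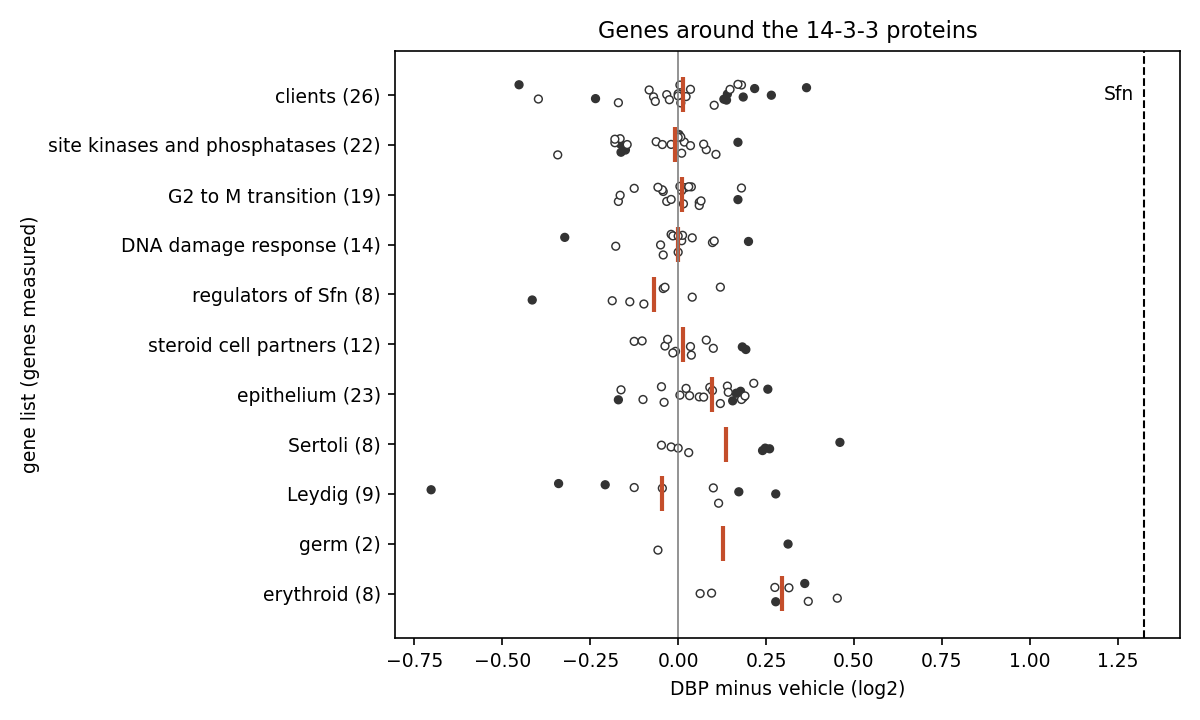
Difference in log2 signal, DBP minus vehicle (horizontal axis), of every measured gene in each list (vertical axis, number measured in brackets). Filled points had a limma p under 0.05 before adjustment, red bars are list medians, and 0 genes passed after adjustment; the dashed line at 1.33 is Sfn.

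Markers of other tissues and cell types were set beside the Sfn difference. Of 23 measured epithelial genes, the class in which Sfn is best known, 0 passed, 18 were higher and 5 lower in DBP, with a median of 0.10 beside 0.02 over all genes. The mean log2 signal of the list was 6.34 to 6.41 in the DBP samples and 6.24 to 6.36 in the vehicle samples. Before adjustment 6 of the 23 were under 0.05 in limma, 5 higher and 1 lower, against 19.1% of all genes. The groups did not overlap for 2 of the 23, Krt8 and Epcam, against 12.9% of all genes. Krt8 and Krt18, the keratin pair of simple epithelia, differed by 0.17 (adjusted p = 0.201 in limma) and 0.16 (adjusted p = 0.239), and Krt19 by 0.22 (adjusted p = 0.417). Krt8 was higher in each DBP sample than in each vehicle sample. Epcam, an epithelial adhesion protein, was lower in each DBP sample, by -0.17 (adjusted p = 0.185), Cdh1, E-cadherin, differed by -0.10 (adjusted p = 0.662) and Pax8, of duct epithelium, by 0.26 (adjusted p = 0.205). Krt5 and Krt14, the basal keratins of stratified epithelium, differed by 0.03 and 0.14 and read at most 5.51 on any array. In DBP replicates 1 and 2 alone Cdh1 differed by 0.03 and Pax8 by 0.13, while in replicates 3 and 4 Pax8 passed at 0.38, together with Elf3. The widest difference in the list over all arrays was 0.26, and the part of epithelial cells in the Sfn signal was not tested.

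Sertoli cell markers had a median of 0.14 and 0 of 8 passed, led by Aard (0.24, adjusted p = 0.108 in limma), Cst12 (0.46, adjusted p = 0.133) and Ptgds (0.26, adjusted p = 0.195). Before adjustment 4 of the 8 were under 0.05 in limma, all higher, against 19.1% of all genes. The groups did not overlap for 2 of the 8, against 12.9% of all genes. The list's mean log2 signal was 9.85 to 10.08 in DBP and 9.76 to 9.82 in vehicle. In DBP replicates 1 and 2 the median was 0.08, with Cst12 at 0.23 and Ptgds at 0.11, and in replicates 3 and 4 it was 0.18, with all 3 genes past the threshold. Aard also passed with a trend and robust prior, where 1.76% of all genes did, and Aard and Cst12 passed without DBP replicate 2, where 2.31% did. Leydig cell markers had a median of -0.05 with 0 of 9 past the threshold, led by Insl3 (-0.34, adjusted p = 0.0732), Vsnl1 (-0.70, adjusted p = 0.0888) and Hsd11b1 (0.28, adjusted p = 0.122). Of the 9, 5 were under 0.05 before adjustment, 2 higher and 3 lower, and 5 had groups that did not overlap. Over all genes these shares were 19.1% and 12.9%. The markers were chosen with earlier results of these data known, so the counts are a description. Insl3 was lower in every DBP sample and its call depended on the setting. It passed with a trend and robust prior (with Hsd3b1), with array weights (with Vsnl1, where 1.64% of all genes did), without DBP replicate 4, in DBP replicates 1 and 2 (with Vsnl1) and in replicates 3 and 4. Only 2 of the 8 germ cell markers listed were measured, so germ cells were poorly covered. Both missed the threshold, Sycp3 at 0.31 (adjusted p = 0.0972) and Nanos3 at -0.06 (adjusted p = 0.673), although Sycp3 passed in DBP replicates 3 and 4. Sycp3 was also under 0.05 before adjustment. Erythroid markers gave 0 of 8, with Hba-a3 at 0.28 (adjusted p = 0.109), Gata1 at 0.36 (adjusted p = 0.182) and Hemgn at 0.32 (adjusted p = 0.334). Before adjustment 2 of these 8 were under 0.05, both higher, and 2 had groups that did not overlap, beside the same shares over all genes. In DBP replicates 1 and 2 alone 4 of the 8 passed, Alas2, Slc4a1, Hemgn (0.63) and Gata1 (0.59), and Hba-a3 passed with a trend and robust prior. The erythroid median was 0.61 for the first pair of DBP replicates and -0.03 for the other pair. Sfn was 1.34 and 1.32 above vehicle in those pairs of arrays, and the part of blood content in the Sfn signal was not tested.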

How the data were processed

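Total RNA of fetal testes was hybridised as biotinylated cRNA, 1 array per sample. The authors deposited log2 values from RMA (robust multi-array average), a method that the submitters' processing notes name without a version. Of 31099 probe sets 57 controls were set aside. Gene symbols came from the platform annotation (20826 with 1 symbol, 436 with several, 9780 with none), and the brightest probe set represented a gene in lists.

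DBP and vehicle were compared with limma 3.58.1 (R 4.3.3; lmFit and eBayes), 2-sided, with Benjamini-Hochberg adjustment over all 31042 probe sets and a threshold of 0.05; 5664 had an unadjusted p under 0.05. On simulated arrays of 31042 probe sets it found 97 of 100 true log2 differences of 1, 74 of 100 true differences of 0.5, and 7 false ones. On the measured arrays 76.4% of probe sets had a larger SD in DBP than in vehicle. Whether the counts of true and false differences found hold for such arrays was not tested. Named genes were all member probe sets, the 5 genes most like Sfn, those past the threshold and the 3 with the smallest p in each of 11 lists, and a fixed set of partners and keratins; Amh, Alas2, Brca1, Cdc25b, Elf3, Hsd3b1, Kcnk3, Pim1 and Slc4a1 were named after their values were seen. The members and lists were chosen with earlier results of these data known. Of the fixed set, Cdc25c and Yap1 were not analysed here. The number of arrays limits the precision, and the arrays give no counts or depth. Identical arrays numbered 0. Tables and figures used Python 3.11.15, pandas 2.3.3 and matplotlib 3.10.9. Alternatives were other scalings, a filter on mean signal above 5, a trend and robust prior, array weights, unmoderated t statistics, the replicate number as a block, leaving out arrays, and averaging a gene's probe sets.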

Additional observations from a re-analysis of the deposited data

Results flagged for a closer look

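In 5 of the 132 groups of 4 arrays checked for the genes named, 1 array stood far from the other 3; chance alone marks about 1 in 20 groups. Krt8 in vehicle replicate 4 was 9.76, against 9.70 to 9.71 in the other vehicle arrays. Foxo4 in vehicle replicate 2 was 7.70, against 7.50 to 7.51. Pdpk1 in vehicle replicate 4 was 9.40, against 9.45 to 9.46. Sycp3 in vehicle replicate 1 was 9.17, against 8.92 to 8.95. Pim1 in DBP replicate 4 was 4.45, against 5.23 to 5.24 in the other DBP arrays. None of the 10 member probe sets of the 14-3-3 family had such an array in either group.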

How the results depend on the processing

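The Sfn difference stayed between 1.26 and 1.42 on the log2 scale in the 13 alternatives that could move it, and the Ywha probe sets stayed between -0.10 and 0.09; of 133 alternative values of member differences that could move 129 moved by less than the SD between replicates, and the other 4 were a Ywhaq and a Ywhaz probe set in DBP replicates 1 and 2 or 3 and 4 alone. The count over all probe sets, 331, was less stable: 175 with the replicate block, 74 with unmoderated t statistics, 577 for DBP replicates 1 and 2, and 4129 for DBP replicates 3 and 4, a comparison chosen after seeing the data. Without 1 array it was 82 to 606, outside 1.5 times the full count without DBP replicate 2 (606), DBP replicate 3 (220) or vehicle replicate 1 (114), 2 (122), 3 (82) or 4 (118). The lists of 95 partner genes gave 0 in the main setting, 3 for DBP replicates 1 and 2, 8 for DBP replicates 3 and 4 (Brca1, Cdkn1a, Chek1, Foxo4, Kcnk3, Rprm, Th and Wee1), and 0 to 1 without 1 array; the cause was not tested. The 5 genes most like Sfn shared 0 with those found on deviations from group means. Same-numbered samples are not stated to be paired: their deviations from the group means correlated at 0.108, -0.076, 0.097 and -0.021, and 2 of the 4 numbers matched best. The replicate block cannot move a balanced difference such as the 1.33 of Sfn, and gave it an SE of 0.089, against 0.12 without the block. The number of arrays and the low Sfn signal in vehicle limit precision.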
